A study of Mus musculus with 9 samples.

Results

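Cytochrome P450 genes of families 2, 3 and 4 were described in mouse colon RNA. They were taken as the rows whose gene symbol reads Cyp, then 2, 3 or 4, then letters and a closing number, which gave 73 of the 21720 genes of the table: 49 of family 2, 7 of family 3 and 17 of family 4. All 3 groups of 3 libraries came from colon of female wild-type C57BL/6 J mice. The Normal group was gavaged over 7 days with vehicle, 0.5% CMC-Na (sodium carboxymethyl cellulose). The Model group was given 5% DSS (dextran sulfate sodium), which injures the colonic epithelium and is used to model colitis, over 7 days. The ATO group was dosed daily with the statin atorvastatin, 10 mg/kg in a volume of 0.2 mL, on 5 days (days 3 to 7). The labels leave unstated whether the ATO mice also had DSS and whether each library came from its own mouse, so the spread behind each p-value is that among these libraries and can be technical.

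P450 enzymes are heme proteins that insert an oxygen atom into small molecules, drawing electrons from the reductase Por in the endoplasmic reticulum. Families 2 and 3 oxidise drugs, steroids and plant compounds, and several members of families 2 and 4 oxidise arachidonic acid and its products, with epoxygenases making epoxides and omega-hydroxylases acting at the far end of the chain. In the gut epithelium they meet food and microbial compounds before these reach the liver. Their genes lie in clusters of close paralogs, many of which are known mainly from liver.

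Of the 73 genes, 23 had 0 counts in every library and 50 had at least 1 count. The genes with 0 counts throughout included 4 of 5 Cyp4a genes, 3 of 4 Cyp2a genes, 6 of 15 Cyp2c genes and 4 of 8 Cyp2j genes, whereas all 8 Cyp2d and all 9 Cyp4f genes had counts. In a single library a count of 0 allows up to 3 read pairs, or 12 estimated counts, which is 0.131 to 0.165 CPM (counts relative to the library's total, scaled by TMM for all other CPM values) for counting error alone. The low-count filter kept 38 of the 73 genes, and 18 had a mean of at least 10 CPM.

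The libraries held 72584333 to 91737502 estimated counts. All 11 colon epithelial markers were present, at summed levels of 17448 to 20926 CPM in Normal, 17163 to 22506 CPM in Model and 14850 to 19217 CPM in ATO, and 0 of the 11 passed the test in any comparison. Some libraries stood apart. Pancreatic acinar markers (10 in the table) summed to 67600 CPM in Model 2 and 27888 CPM in Model 3, against 8.21 to 2008 CPM elsewhere. The Hox gene Hoxb13, a marker of the distal hindgut, was at 1.29 and 0.406 CPM in ATO 1 and 3, at 21.2 CPM in Model 2 and at 25.6 CPM in Normal 1, against 107 to 241 CPM in the other 5 libraries. Of the other cell type lists, 4 of 8 fibroblast and smooth muscle markers rose in Model (Col1a1, Col1a2, Pdgfra and Dcn) and 3 of 8 in ATO against Normal (the same without Dcn). The other 4, Acta2, Myh11, Des and Tagln, went the other way in both comparisons and did not pass. Their log2 fold changes in ATO against Normal were -0.55, -1.09, -1.26 and -0.80. The summed level of all 8 was 3022 to 3947 CPM in Normal, 2126 to 3664 CPM in Model and 2192 to 2604 CPM in ATO. Of 5 tested hepatocyte markers Tat rose in Model, while albumin (Alb) was at 0 to 3.30 CPM in the 9 libraries. None of the surface colonocyte, leukocyte, small intestinal, acinar and distal hindgut markers passed. In ATO against Model no tested gene passed, so this does not show like levels there. There 4 of 9 surface colonocyte and 5 of 9 tested small intestinal markers had an unadjusted edgeR p under 0.05, among 1908 genes. Car4, Slc26a3 and Aqp8 were lowest in ATO 1 and 3, and Car1 and Slc51a were highest there. Aqp8 was at 103 and 179 CPM in them, against 543 to 1465 CPM elsewhere. The other surface colonocyte markers did not set ATO 1 and 3 apart. The part of these cell types in the P450 values was not tested. Because some libraries stood apart, results below were also computed without Model 2 and 3, and with the Hoxb13 level as a covariate, the latter chosen after the data were seen.

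The summed level of the 73 genes was 1733 ± 214 CPM in Normal, 1327 ± 228 CPM in Model and 1359 ± 245 CPM in ATO (mean ± SD, n = 3 libraries each). By library it was 1794, 1909 and 1495 CPM in Normal, 1388, 1075 and 1518 CPM in Model, and 1129, 1332 and 1616 CPM in ATO. Each group thus overlapped the others. Relative to 1000 counts of colon epithelial markers, the sum was 87.7 ± 3.41 in Normal, 67.5 ± 18.7 in Model and 77.4 ± 8.87 in ATO. In these bulk libraries, fewer epithelial cells and less RNA per cell cannot be told apart.

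**Figure D1:**
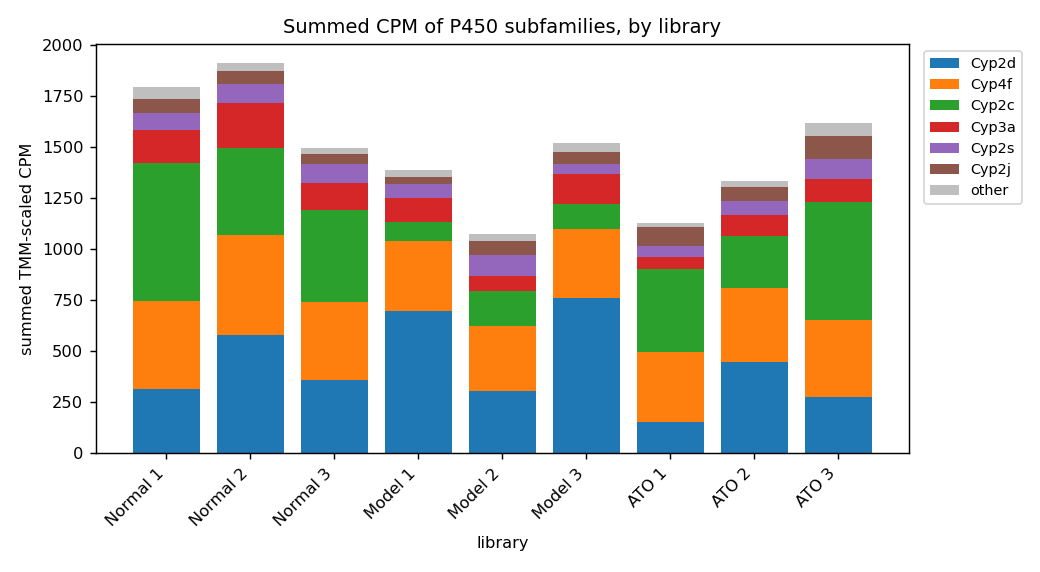
Summed TMM-scaled CPM (y axis) of the P450 subfamilies in each of the 9 libraries (x axis), 1 stacked bar per library. The Cyp2c segment was 425 to 675 CPM in Normal, 92.6 to 174 CPM in Model and 254 to 579 CPM in ATO, and the Cyp2d segment ranged from 154 CPM in ATO 1 to 762 CPM in Model 3.

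The subfamilies that made up the sum differed between groups. Cyp2c genes together were at 516 ± 138 CPM in Normal, 129 ± 41.5 CPM in Model and 413 ± 163 CPM in ATO, and the Model libraries lay below all others. Cyp2c55 alone, counted in that sum, was at 417 CPM in Normal, 78.6 CPM in Model and 296 CPM in ATO. Cyp2d genes were at 418 ± 142 CPM in Normal, 588 ± 247 CPM in Model and 291 ± 146 CPM in ATO, with overlapping groups. The 9 Cyp4f genes summed to 434 ± 54.4 CPM in Normal, 331 ± 13.3 CPM in Model and 360 ± 18.6 CPM in ATO, and the Normal libraries lay above all others. Within that sum Cyp4f14 was at 242 CPM in Normal, 120 CPM in Model and 140 CPM in ATO. Cyp4f40 went the other way, at 49.1, 82.6 and 116 CPM. The sums hold the genes called below and are not separate results. Levels of different genes were compared per kb of exon (annotated exon bases). On that scale Cyp2c55 led in Normal with 209 CPM per kb and in ATO with 149 CPM per kb, but had 39.4 CPM per kb in Model. Cyp2d34 led in Model with 204 CPM per kb, beside 155 in Normal and 110 in ATO. Of the summed per-kb level of the 73 genes, Cyp2c55 held 25.8 ± 7.85% in Normal, 6.63 ± 4.56% in Model and 23.3 ± 7.14% in ATO. These subfamily sums and shares are descriptions with no test.

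In Model against Normal, which sets the DSS group against the vehicle group, Cyp2c55 and Cyp4f14 were the members that passed, and both were lower in Model. Among the 38 tested members 2 were lower and 0 higher at an adjusted p under 0.05 in edgeR's quasi-likelihood test, against 5.46% of the 16160 tested genes called in either direction, 1.1% lower and 4.37% higher. The members' median log2 fold change was -0.24, beside -0.00 over all tested genes, and 23 of 38 were negative. At an unadjusted edgeR p under 0.05 there were 8 of 38 members and 3383 of 16160 genes. The 2 groups' libraries did not overlap for 10 members, 7 lower and 3 higher in Model. Of all tested genes 25.7% had no overlap, 11.7% lower and 14% higher.

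In ATO against Model, which asks how the atorvastatin group differed from the DSS group, 0 of 38 members and 0 of 16160 genes (0%) passed edgeR's test. At an unadjusted edgeR p under 0.05 there were 8 of 38 members and 1908 of 16160 genes. DESeq2 called 1 member, Cyp2c55, higher in ATO (adjusted p = 0.000475) among 317 genes. The median log2 fold change was -0.21 over the members and -0.03 over all genes. Groups did not overlap for 3 members higher in ATO (Cyp2c55, Cyp2t4 and Cyp2ab1) and 2 lower (Cyp4v3 and Cyp4f18), and 15.6% of all genes had no overlap, 7.9% higher and 7.7% lower.

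In ATO against Normal, Cyp4f40 was the 1 member of 38 that passed, and it was higher in ATO, while 0 members passed as lower. Over all tested genes 1.67% were called, 1.32% higher and 0.347% lower. The members' median log2 fold change was -0.26, beside 0.01 over all genes. At an unadjusted edgeR p under 0.05 there were 4 of 38 members and 2452 of 16160 genes. No overlap was seen for 1 member higher and 4 lower in ATO, and for 24.7% of all genes, 13.5% higher and 11.2% lower. The 3 comparisons share libraries in pairs (Normal, Model or ATO), so their values below are given side by side and are not independent.

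**Figure D2:**
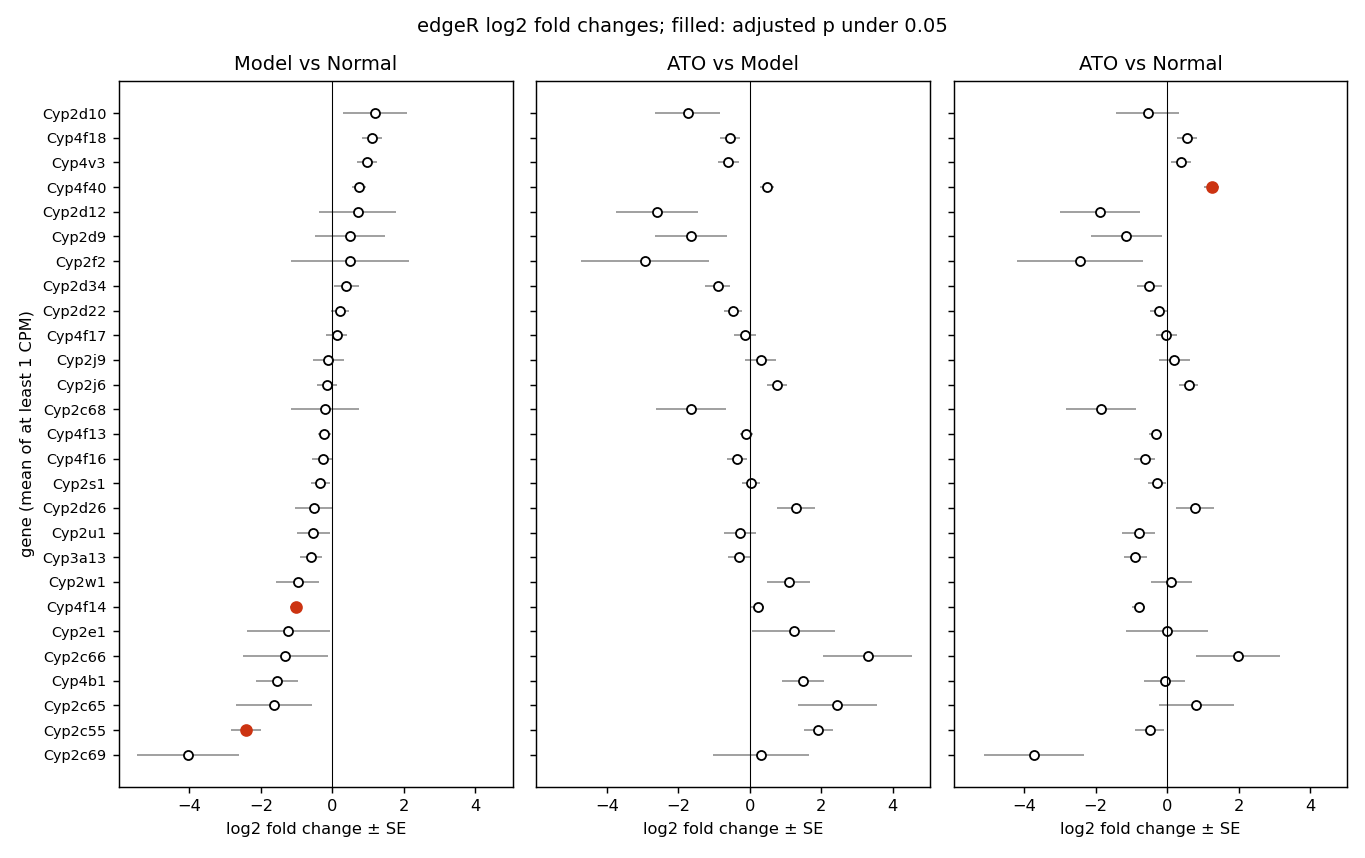
Log2 fold changes with SE (x axis) of the 27 tested P450 genes with a mean of at least 1 CPM (y axis), in 3 panels, one for each comparison. Filled points passed an adjusted p under 0.05: Cyp2c55 and Cyp4f14 below 0 for Model against Normal, and Cyp4f40 above 0 for ATO against Normal.

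Cyp2c55, a P450 of the gut epithelium that oxidises arachidonic acid, is the first gene of the Cyp2c cluster on chromosome 19 (chr19:38995463-39031137, mm39). Its level was 561, 320 and 371 CPM in Normal 1 to 3, 42.3, 117 and 76.5 CPM in Model 1 to 3, and 277, 192 and 420 CPM in ATO 1 to 3. Every Model library lay below every Normal and every ATO library. Cyp2c55 fell in Model against Normal, from 417 ± 127 to 78.6 ± 37.5 CPM (log2 fold change -2.41 ± 0.42 (SE), adjusted p = 0.0151). Without Normal 3 the adjusted p was 0.0546, and without Model 2 and 3 it was 0.0305 at a log2 fold change of -3.30. The ATO level of 296 ± 115 CPM was 3.77-fold the Model level (log2 fold change 1.91 ± 0.41), and this did not pass edgeR's test over all genes (adjusted p = 0.322). With the Hoxb13 level as a covariate the log2 fold change for ATO against Model was 1.18 (adjusted p = 0.946), and that for Model against Normal was -2.38 (adjusted p = 0.00522). ATO did not pass against Normal (log2 fold change -0.49 ± 0.40, adjusted p = 0.627).

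**Figure D3:**
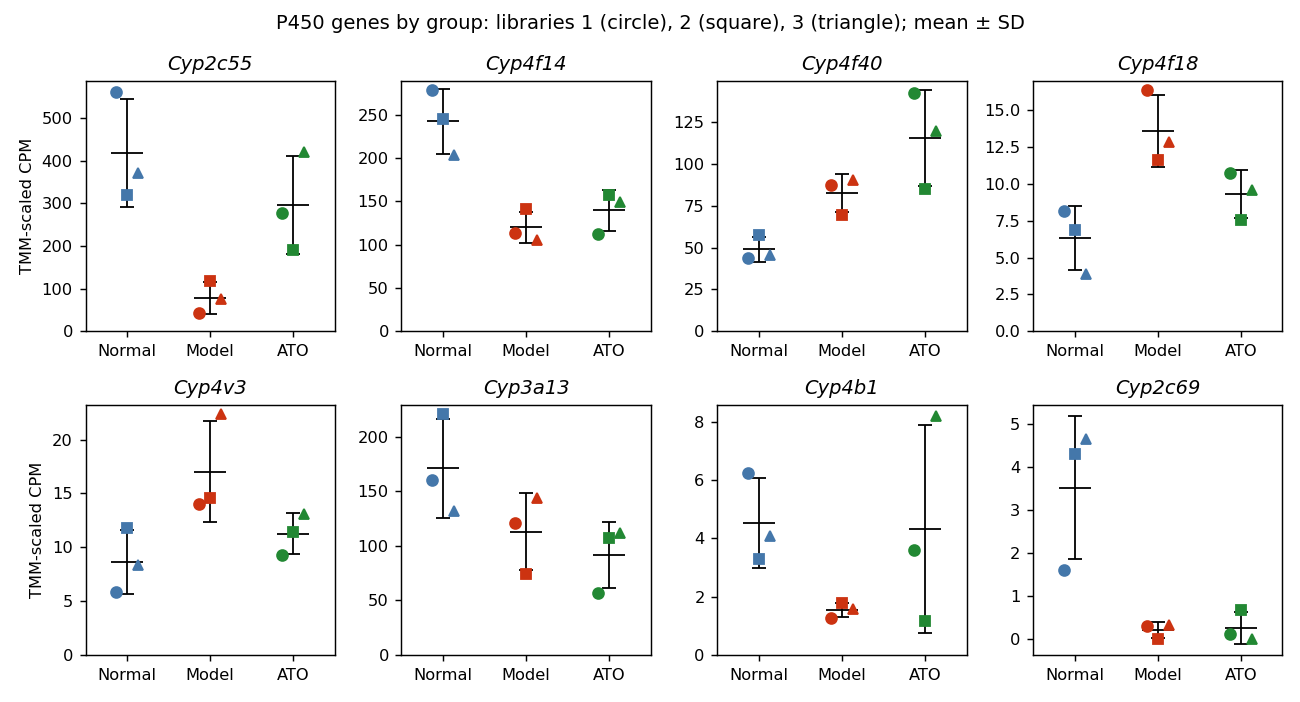
TMM-scaled CPM (y axis, a separate scale for each gene) of 8 P450 genes in the 3 groups (x axis). Points are libraries 1 (circle), 2 (square) and 3 (triangle), and bars are the mean ± SD of 3 libraries. Cyp2c55 was at 42.3 to 117 CPM in Model and at or above 192 CPM in every other library, and Cyp4f40 was at 43.9 to 57.6 CPM in Normal and at or above 69.6 CPM elsewhere.

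The next genes along the chromosome behaved differently from library to library. Cyp2c65, the neighbour of Cyp2c55 and known from mouse intestine (chr19:39049459-39082388), was at 103, 35.1 and 36.8 CPM in Normal, 1.58, 49.7 and 4.95 CPM in Model, and 121, 38.8 and 148 CPM in ATO. Model 2 stood 31.5-fold above Model 1, within the range of the other groups, while Model 1 and 3 lay below every other library. Cyp2c65 did not pass in Model against Normal (log2 fold change -1.63 ± 1.07, adjusted p = 0.428). With Model 2 left out, Cyp2c65 was called as lower in Model at the same threshold. Cyp2c66, its closest neighbour in sequence among the members, was at 2.23, 0.564 and 0.578 CPM in Normal, 0.106, 1.12 and 0.117 CPM in Model, and 4.70, 0.351 and 8.23 CPM in ATO. It was again high in Model 2 within its group and low in ATO 2, and did not pass (ATO against Model, log2 fold change 3.29 ± 1.25, adjusted p = 0.366). That value was 5.29 without Model 2 and 0.24 with the Hoxb13 covariate.

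Farther along the same cluster the libraries took another order. Cyp2c68 (chr19:39677278-39729498) was at 6.94, 61.6 and 34.4 CPM in Normal, 45.9, 6.09 and 37.0 CPM in Model, and 4.71, 20.9 and 2.95 CPM in ATO. The low library was number 1 in Normal and number 2 in Model, and the high library was number 2 in ATO. Its log2 fold change was -1.85 ± 0.99 for ATO against Normal (adjusted p = 0.421), and -0.03 with the Hoxb13 covariate. Cyp2c69 was at 1.60, 4.30 and 4.64 CPM in Normal, 0.307, 0 and 0.336 CPM in Model, and 0.110, 0.680 and 0 CPM in ATO. All Normal libraries lay above all others, on few read pairs elsewhere, and neither Model (log2 fold change -4.03 ± 1.43, adjusted p = 0.145) nor ATO (log2 fold change -3.73 ± 1.40, adjusted p = 0.250) passed against Normal. Counts of this stretch are uncertain: 54.8% of the 75-base windows of Cyp2c40, 43.2% of those of Cyp2c69 and 28.5% of those of Cyp2c68 also occur in another member, whereas those of Cyp2c55 do not.

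The promoters of Cyp2c55, Cyp2c65 and Cyp2c68 are shown because these genes of the same cluster differ in which libraries are high. Sequences are from RefSeq (GRCm38.p6; 250 bases before to 50 after the start site), 5′ to 3′ on the gene's strand, with matches to a searched motif in capitals. They lie at chr19:39006769-39007068 (plus strand), chr19:39060756-39061055 (plus strand) and chr19:39741052-39741351 (minus strand).
Cyp2c55: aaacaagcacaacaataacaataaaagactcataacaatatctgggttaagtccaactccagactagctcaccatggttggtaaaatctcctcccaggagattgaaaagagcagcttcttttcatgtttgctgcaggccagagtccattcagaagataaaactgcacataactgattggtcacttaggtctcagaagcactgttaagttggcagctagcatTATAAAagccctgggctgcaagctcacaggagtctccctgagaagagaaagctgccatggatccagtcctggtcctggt
Cyp2c65: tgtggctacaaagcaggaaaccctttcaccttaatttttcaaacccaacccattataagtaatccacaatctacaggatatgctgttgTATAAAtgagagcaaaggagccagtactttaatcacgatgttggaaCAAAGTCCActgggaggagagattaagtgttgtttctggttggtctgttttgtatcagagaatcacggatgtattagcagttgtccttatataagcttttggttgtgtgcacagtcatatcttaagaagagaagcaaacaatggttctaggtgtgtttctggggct
Cyp2c68: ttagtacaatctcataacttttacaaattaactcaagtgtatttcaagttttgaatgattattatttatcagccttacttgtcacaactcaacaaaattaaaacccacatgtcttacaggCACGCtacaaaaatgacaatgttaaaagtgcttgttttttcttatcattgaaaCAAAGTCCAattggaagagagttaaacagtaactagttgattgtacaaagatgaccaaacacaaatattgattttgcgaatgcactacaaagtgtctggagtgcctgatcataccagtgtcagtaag
Cyp2c55 holds a TATAAA that begins 29 bases before the start site. Cyp2c65 and Cyp2c68 both hold CAAAGTCCA, 116 and 77 bases before it, and Cyp2c65 a TATAAA 162 bases before it. Only exact letters were searched, so the tatataa closer to the Cyp2c65 start site is not in capitals. The capitals CACGC in Cyp2c68 are GCGTG on the other strand.

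RefSeq promoters were matched for 60 of the 73 members and 27025 genes in all, and 6 motifs were searched on both strands, none of which contains another. CAAAGTCCA, a form of the HNF4 site, occurred in 8 of 60 members (13.3%) and in 0.555% of all genes. These were Cyp2c40, Cyp2c65, Cyp2c67, Cyp2c68, Cyp2c69, Cyp2c70, Cyp3a11 and Cyp3a16, of which the Cyp2c genes are close paralogs and not independent. TATAAA, the letters of a TATA box, occurred at any position of the window in 25 members (41.7%) and 15.7% of all genes. AGGTCA, the nuclear receptor core, occurred in 19 members (31.7%) and 18.1%. GCGTG, the core bound by the aryl hydrocarbon receptor, occurred in 12 members (20.0%) and 35.2% of genes. TTTATG, a CDX site, was found in 9 of the 60 members and 13.6% of genes, and CCAATAAA, a HOXB13 site, in 0 members and 1.32% of genes. A match is a description of these letters, not of binding.

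Cyp2d genes, whose human relative CYP2D6 metabolises many drugs, lie together on chromosome 15. Cyp2d34 (chr15:82500166-82505146) was at 235, 309 and 230 CPM in Normal, 405, 228 and 383 CPM in Model, and 101, 274 and 171 CPM in ATO. Model 1 and 3 were the highest libraries and ATO 1 and 3 the lowest, and the groups overlapped. Its level did not pass in Model against Normal (log2 fold change 0.39 ± 0.35, adjusted p = 0.572) or in ATO against Model (log2 fold change -0.90 ± 0.35, adjusted p = 0.371). Cyp2d10 was at 18.98, 68.9 and 31.7 CPM in Normal, 97.3, 25.5 and 150 CPM in Model, and 7.00, 64.4 and 10.6 CPM in ATO. Cyp2d9 (chr15:82317638-82341046) was at 17.98, 97.0 and 36.4 CPM in Normal, 71.8, 15.3 and 127 CPM in Model, and 6.68, 54.7 and 7.27 CPM in ATO. Model 3 was the highest library for both genes, and ATO 1 and 3 were the lowest. Cyp2d12 had a wider spread, at 9.38, 63.4 and 23.9 CPM in Normal, 91.9, 5.42 and 60.6 CPM in Model, and 2.495, 20.7 and 3.06 CPM in ATO, and did not pass in ATO against Model (log2 fold change -2.59 ± 1.15, adjusted p = 0.422). The log2 fold change of Cyp2d12 was -4.25 without ATO 2 and -0.24 with the Hoxb13 covariate, and that of Cyp2d34 in the same comparison was -0.31 with the covariate. Cyp2d26 was highest in ATO 3, with 7.501, 16.1 and 21.9 CPM in Model and 26.9, 15.04 and 69.1 CPM in ATO beside 20.8, 22.1 and 22.2 CPM in Normal (ATO against Model, log2 fold change 1.29 ± 0.53, adjusted p = 0.394). Without ATO 3 this value was 0.48, and with the Hoxb13 covariate 0.21. Of the 75-base windows of Cyp2d10, 21.8% occur in another member, and of those of Cyp2d9, 11.4%.

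The promoter of Cyp2d9 is shown for comparison with that of Cyp2c68, a gene on another chromosome whose libraries fell in a like order (chr15:82452127-82452426, plus strand, GRCm38.p6).
Cyp2d9: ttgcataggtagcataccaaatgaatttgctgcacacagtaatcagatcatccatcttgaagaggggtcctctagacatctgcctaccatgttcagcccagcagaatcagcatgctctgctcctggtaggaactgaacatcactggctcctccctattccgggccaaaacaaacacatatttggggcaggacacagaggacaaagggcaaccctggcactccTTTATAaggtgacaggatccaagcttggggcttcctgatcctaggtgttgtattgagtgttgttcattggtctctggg
Its only match in capitals is TATAAA on the other strand, 28 bases before the start site.

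Among the P450 genes outside these clusters, Cyp2j6, an arachidonic acid epoxygenase known from mouse intestine, was at 67.5, 60.9 and 45.9 CPM in Normal, 33.6, 68.0 and 54.7 CPM in Model, and 88.2, 65.8 and 110 CPM in ATO. ATO 1 and 3 were above every other library and ATO 2 lay within the range of the others. Cyp2j6 did not pass in ATO against Model (log2 fold change 0.75 ± 0.28, adjusted p = 0.359) or Normal (log2 fold change 0.60 ± 0.27, adjusted p = 0.347). With the Hoxb13 covariate these values were 0.28 and 0.15. Cyp2s1, an epithelial P450 inducible by dioxin, was at 86.1, 94.5 and 92.2 CPM in Normal, 66.0, 99.98 and 50.8 CPM in Model, and 56.3, 68.8 and 97.6 CPM in ATO. The Normal libraries of Cyp2s1 were close together and the other groups spread around them (Model against Normal, log2 fold change -0.33 ± 0.26, adjusted p = 0.513). Cyp2e1, the ethanol-oxidising P450, ranged 15.01-fold within Normal, from 2.52 to 37.8 CPM. Cyp2f2, known for naphthalene oxidation in airway club cells, ranged 78.6-fold within Normal, 113-fold within Model and 51.4-fold within ATO, over 0.0597 to 16.5 CPM. Cyp2r1, the vitamin D 25-hydroxylase, was at 0.284 to 1.40 CPM, and none of its 3 comparisons passed.

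In family 3, Cyp3a13, the Cyp3a form best known from mouse intestine, carried nearly the whole signal (chr5:137891194-137919881, mm39). It was at 160, 221 and 132 CPM in Normal, 121, 74.2 and 144 CPM in Model, and 57.2, 107 and 112 CPM in ATO. Every ATO library lay below every Normal library, and Model overlapped both. Cyp3a13 did not pass in ATO against Normal (log2 fold change -0.90 ± 0.32, adjusted p = 0.219) or in Model against Normal (log2 fold change -0.60 ± 0.32, adjusted p = 0.323). Cyp3a25 was found mainly in Model 3, with 201 estimated counts there, 12 in Normal 2, 19 in ATO 3 and 0 in the other 6 libraries. Cyp3a11, a target of the pregnane X receptor in liver, had 48 estimated counts in Model 3 and 0 in the other 8 libraries. Of 10 small intestinal enterocyte markers 8 were highest in Model 3. Their summed level was 631 CPM there, against 170 to 340 CPM in Normal, 182 and 290 CPM in Model 1 and 2, and 145 to 301 CPM in ATO. Sucrase-isomaltase (Sis) was at 47.0 CPM and lactase (Lct) at 50.3 CPM in Model 3, with at most 2.60 and 0.375 CPM elsewhere. The other 2 markers were not highest there: Fabp2 was at 23.8 CPM in Model 3 and 8.27 to 199.7 CPM elsewhere, and Alpi at 46.6 CPM in Model 3 and 1.73 to 109 CPM elsewhere. The part of these markers in the Cyp3a counts was not tested.

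In family 4, Cyp4f14, an omega-hydroxylase of leukotriene B4, and Cyp4f40 lie in the same cluster on chromosome 17 (chr17:33124044-33136316 and chr17:32877874-32895888, mm39). Cyp4f14 was at 279, 245 and 203 CPM in Normal, 113, 141 and 106 CPM in Model, and 112, 158 and 149 CPM in ATO. All Normal libraries lay above all others. Cyp4f14 fell in Model against Normal, from 242 ± 37.8 to 120 ± 18.4 CPM, a log2 fold change of -1.02 ± 0.18 (adjusted p = 0.0162). The adjusted p was 0.0575 without Normal 1, 0.0617 without Model 1 and 0.0780 without Model 2 and 3 together. In ATO, Cyp4f14 was at 140 ± 23.9 CPM, which did not pass against Normal (log2 fold change -0.80 ± 0.18, adjusted p = 0.0636).

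Cyp4f40 was lowest in Normal. Its level was 43.9, 57.6 and 45.8 CPM in Normal, 87.3, 69.6 and 90.8 CPM in Model, and 143, 85.2 and 120 CPM in ATO. All Normal libraries lay below all others, and Model and ATO overlapped through ATO 2. Cyp4f40 rose in ATO against Normal, from 49.1 ± 7.44 to 116 ± 28.9 CPM, 2.36-fold (log2 fold change 1.24 ± 0.20, adjusted p = 0.0217). The adjusted p was 0.0891 without Normal 1, 0.115 without Normal 3, 0.0724 without ATO 1, 0.0764 without ATO 3 and 0.162 with the Hoxb13 level as a covariate. Model did not pass against Normal at 82.6 ± 11.4 CPM (log2 fold change 0.75 ± 0.20, adjusted p = 0.0651), nor ATO against Model (log2 fold change 0.49 ± 0.20, adjusted p = 0.386). In the summed per-kb level Cyp4f40 held 2.63 ± 0.30% in Normal, 5.61 ± 0.44% in Model and 8.28 ± 3.28% in ATO.

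The promoters of Cyp4f14 and Cyp4f40 are shown because these genes of the same cluster changed in opposite directions, 1 in each of 2 comparisons. They lie at chr17:32917307-32917606 (Cyp4f14, minus strand; the most upstream of 4 listed starts) and chr17:32658636-32658935 (Cyp4f40, plus strand; the most upstream of 2), both GRCm38.p6.
Cyp4f14: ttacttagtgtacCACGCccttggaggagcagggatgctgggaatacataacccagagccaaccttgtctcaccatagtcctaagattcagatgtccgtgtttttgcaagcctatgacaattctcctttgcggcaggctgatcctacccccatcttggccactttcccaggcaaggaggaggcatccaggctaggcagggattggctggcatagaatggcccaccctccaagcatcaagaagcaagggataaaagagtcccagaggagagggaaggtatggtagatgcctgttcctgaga
Cyp4f40: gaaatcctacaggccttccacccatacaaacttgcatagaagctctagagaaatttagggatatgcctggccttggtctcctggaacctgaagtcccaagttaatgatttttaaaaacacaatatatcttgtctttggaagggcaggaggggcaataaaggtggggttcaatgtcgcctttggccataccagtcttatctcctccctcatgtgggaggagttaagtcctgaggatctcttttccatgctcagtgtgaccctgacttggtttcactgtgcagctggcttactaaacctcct
In Cyp4f14 the capitals are GCGTG on the other strand, 237 bases before the start site. In the Cyp4f40 window none of the 6 motifs was found.

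None of the other Cyp4f genes passed edgeR's test. Cyp4f16 was at 63.2, 136 and 86.0 CPM in Normal, 86.6, 58.8 and 90.7 CPM in Model, and 49.5, 76.2 and 58.8 CPM in ATO, and its groups overlapped (ATO against Normal, log2 fold change -0.63 ± 0.29, adjusted p = 0.345, and -0.19 with the Hoxb13 covariate). Of its 75-base windows 15.6% occur in another member. Cyp4f13 was among the most even members, at 33.8 to 40.2 CPM in Normal, 31.4 to 33.2 CPM in Model and 21.2 to 35.2 CPM in ATO. Cyp4f18, the leukotriene B4 hydroxylase of mouse neutrophils, lies apart on chromosome 8 (chr8:72742326-72763470). It was at 8.16, 6.84 and 3.92 CPM in Normal, 16.4, 11.6 and 12.8 CPM in Model, and 10.8, 7.55 and 9.60 CPM in ATO. Every Model library lay above every other library, and Cyp4f18 did not pass in Model against Normal (log2 fold change 1.11 ± 0.28, adjusted p = 0.0559). Of 5 neutrophil markers 4 rose in Model (Csf3r, S100a8, S100a9 and Clec4e) and 3 in ATO against Normal (the same without S100a8). Their summed level was 2.04 to 4.87 CPM in Normal, 25.2 to 73.2 CPM in Model and 22.8 to 84.4 CPM in ATO. In Normal 2 the markers S100a8, S100a9 and Cxcr2 were at 0. Their part in the Cyp4f18 values was not tested.

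Cyp4v3, the counterpart of the human fatty acid omega-hydroxylase CYP4V2, was at 5.88, 11.8 and 8.31 CPM in Normal, 14.1, 14.6 and 22.4 CPM in Model, and 9.26, 11.4 and 13.1 CPM in ATO. All Model libraries lay above all others (Model against Normal, log2 fold change 0.97 ± 0.29, adjusted p = 0.0881). Cyp4b1, which oxidises short- and medium-chain fatty acids, was at 6.25, 3.28 and 4.06 CPM in Normal, 1.27, 1.78 and 1.58 CPM in Model, and 3.59, 1.17 and 8.20 CPM in ATO. The Model libraries lay below the Normal libraries, and ATO covered the range of both (Model against Normal, log2 fold change -1.55 ± 0.59, adjusted p = 0.172). Against Model, ATO had a log2 fold change of 1.48 ± 0.59 for Cyp4b1 (adjusted p = 0.377), and of -0.19 with the Hoxb13 level as a covariate. Cyp4x1 was at 1.11 to 1.54 CPM in Normal, 0.472 to 0.511 CPM in Model and 0.409 to 1.04 CPM in ATO. Its groups Normal and Model did not overlap, and the test was not passed (log2 fold change -1.44 ± 0.43, adjusted p = 0.0945).

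A recurrent order of the libraries ran through many members, and it was described after the values were seen. Within the groups, the highest Normal library was number 2, the lowest Model library number 2 and the highest ATO library number 2 in 12 of 38 tested members (31.6%), against 8.0% of the 16160 tested genes. They were Cyp2c23, Cyp2c40, Cyp2c68, Cyp2d9, Cyp2d10, Cyp2d11, Cyp2d12, Cyp2d22, Cyp2d34, Cyp2f2, Cyp4f16 and Cyp4f37. Among them Cyp2c23, Cyp2c40, Cyp2d11 and Cyp4f37 were at 0 in some libraries and reached at most 0.944, 1.77, 1.23 and 0.453 CPM. Their order rests on few read pairs. Hoxb13 had the same order, at 25.6, 141 and 107 CPM in Normal, 241, 21.2 and 170 CPM in Model, and 1.29, 120 and 0.406 CPM in ATO. Of the 5 distal hindgut markers 3 had this order, Hoxb13, Hoxd13 and Hoxd12, and Hoxa13 and Hoxd11 did not. Hoxb13 was itself the reference for the order, and Hoxd12, at 0 to 0.790 CPM, rests on few read pairs. Hoxa13 was at 30.6, 32.3 and 28.0 CPM in Model, highest in Model 2. The 5 markers summed to 53.8 to 180 CPM in Normal, 53.8 to 297 CPM in Model and 13.9 to 157 CPM in ATO, a sum that includes Hoxb13. The mirror order was seen in Cyp2c55, Cyp2c65, Cyp2c66, Cyp2j9 and Cyp4b1, 5 of 38 members (13.2%) against 6.29% of all tested genes. Cdx2, an intestinal homeobox gene, had the mirror order, at 165, 94.9 and 126 CPM in Normal, 25.3, 124 and 33.4 CPM in Model, and 154, 117 and 193 CPM in ATO. Cdx1, also among the colon epithelial markers, did not have it. Cdx1 was at 176, 180 and 210 CPM in Normal, 227, 181 and 191 CPM in Model, and 201, 230 and 224 CPM in ATO. Members of a cluster share sequence and position, so these counts are not of independent genes. The part of colon region in the P450 values was not tested.

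**Figure D4:**
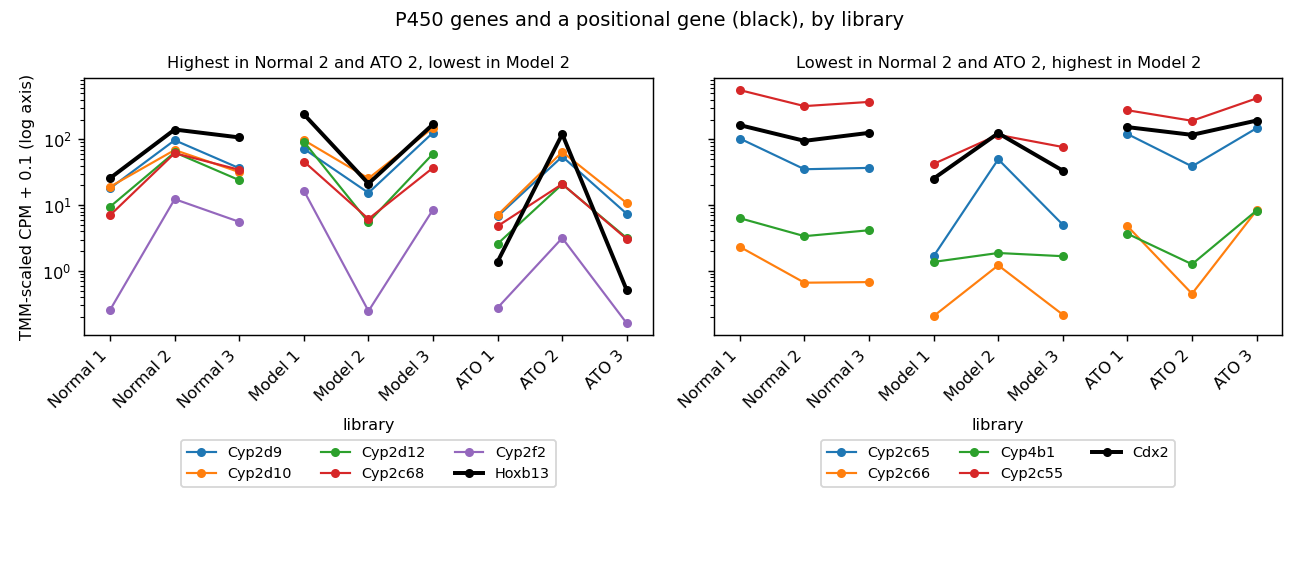
TMM-scaled CPM plus 0.1 on a log axis (y axis) in each library (x axis), with lines joining the libraries of a group. In the left panel 5 P450 genes and Hoxb13 (black) were, each within its own group, highest in Normal 2 and ATO 2 and lowest in Model 2. In the right panel 4 P450 genes and Cdx2 (black) were, within their group, lowest in Normal 2 and ATO 2 and highest in Model 2.

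**Figure D5:**
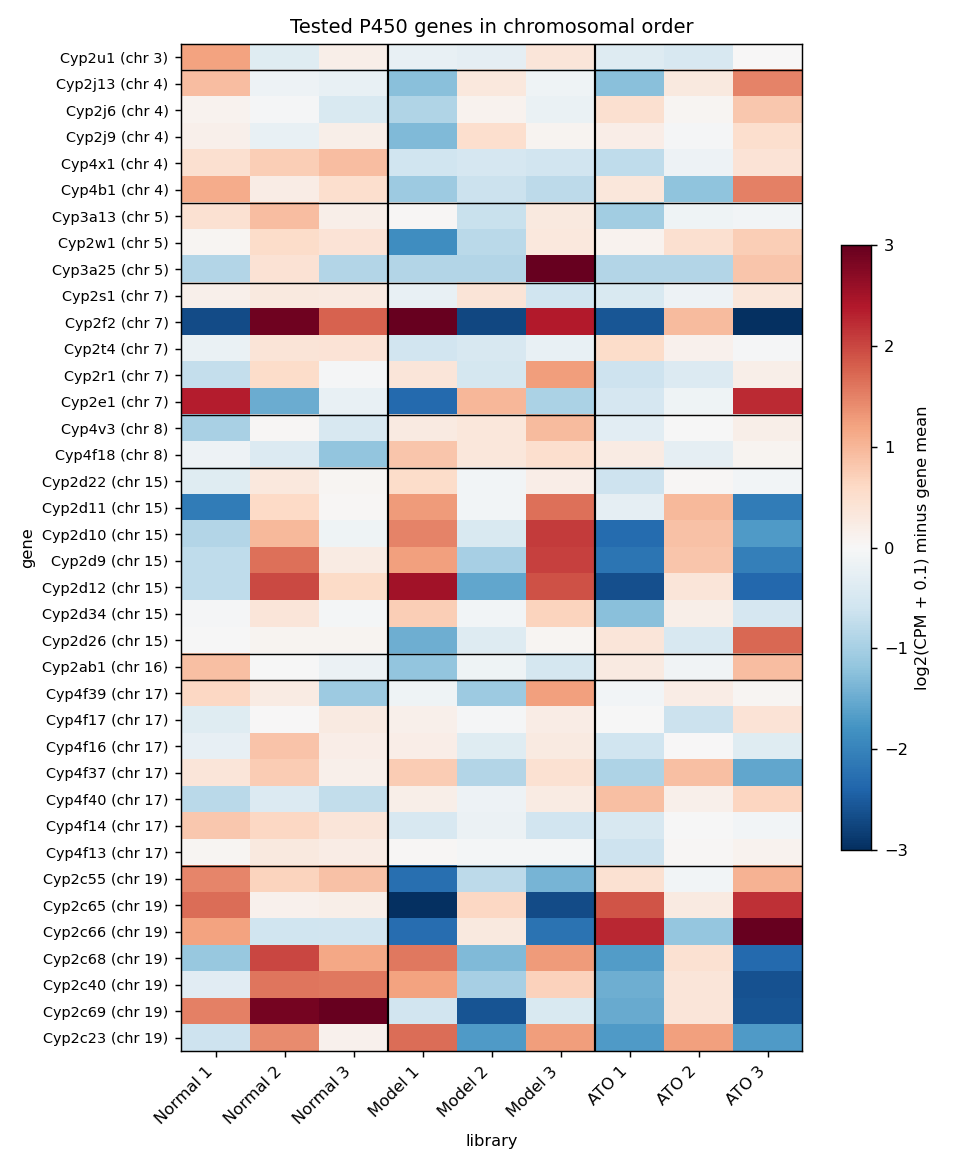
Log2(CPM + 0.1) minus the gene's mean over the 9 libraries (colour, shown from -3 to 3) for the 38 tested P450 genes in chromosomal order (y axis) and the 9 libraries (x axis). On chromosome 19 Cyp2c55, Cyp2c65 and Cyp2c66 are lowest in Model 1, whereas Cyp2c68, Cyp2c40 and Cyp2c23 are lowest in ATO 1 or 3 or in Model 2.

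Among the partners of the P450 enzymes, 1 of 18 electron donors and heme supply genes rose in Model and 0 fell (median log2 fold change -0.06), a share near the 5.46% of all genes called. The same gene rose in ATO against Normal. It was Hmox1, heme oxygenase, which degrades heme. Hmox1 was at 8.76, 7.89 and 6.36 CPM in Normal, 27.5, 27.4 and 19.8 CPM in Model, and 32.3, 20.3 and 22.8 CPM in ATO. All Normal libraries lay below all others, in Model (log2 fold change 1.70 ± 0.22, adjusted p = 0.00613) and in ATO (log2 fold change 1.71 ± 0.22, adjusted p = 0.0133). Por itself did not pass (Model against Normal, log2 fold change -0.12 ± 0.20, adjusted p = 0.772). Of 27 tested regulators of P450 genes, among them the nuclear receptors, 1 rose in Model, the receptor coactivator Ncoa1 (log2 fold change 0.57 ± 0.13, adjusted p = 0.0401), and 0 passed in the other comparisons.

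Epoxide hydrolases, which open the epoxides that P450 enzymes make, numbered 4. Ephx1, the microsomal form, fell in Model against Normal (log2 fold change -0.84 ± 0.19, adjusted p = 0.0401), and 0 of 4 passed as higher. Of all tested genes 1.1% were called lower. Ephx3 was higher in Model without passing (log2 fold change 4.79 ± 1.24, adjusted p = 0.0584). It had 0 to 0.0376 CPM in Normal and 0.161 to 0.657 CPM in Model, on few read pairs. Ephx1 was at 29.9, 29.6 and 35.6 CPM in Normal, 12.9, 20.8 and 19.3 CPM in Model, and 17.4, 21.0 and 17.3 CPM in ATO. The Normal libraries lay above all others, and ATO did not pass against Normal (log2 fold change -0.77 ± 0.19, adjusted p = 0.0895). Of 27 P450 genes outside the rule 12 were tested, and 1 rose in Model. This was Cyp8b1, the sterol 12-alpha-hydroxylase of bile acid synthesis, at 0.397, 0.226 and 0.398 CPM in Normal, 1.79, 1.30 and 1.39 CPM in Model, and 0.453, 1.16 and 0.513 CPM in ATO (Model against Normal, log2 fold change 2.13 ± 0.50, adjusted p = 0.0424).

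The 35 members that were not tested included 12 with a count, of which the highest was Cyp2b10, a target of the constitutive androstane receptor in liver. Cyp2b10 reached 1.05 CPM in Model 3, the library with the most Sis and Lct, and had 0 counts in every Normal library. Cyp3a11 followed at 0.701 CPM and Cyp4f15 at 0.523 CPM in their highest library. The other 9 stayed at or below 0.411 CPM.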

How the data were processed

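Libraries were made from 1.3 µg of mouse colon RNA each, per the labels' protocols. The submitters' processing notes list StringTie, HISAT2, DESeq2 and bcl2fastq 2.0, with no roles, and the builds mm39 and rn6. The values the authors deposited are estimated counts per gene (expected counts), whole numbers with no scaling. Their coordinates were taken as mm39. Since low values cluster at multiples of 4, each read pair was read as about 4 estimated counts. Totals were 72584333 to 91737502 a library, and intervals or limits cover counting error only.

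The members and lists were chosen with earlier results of these data known. Counts were filtered (filterByExpr, 16160 genes kept), scaled by TMM and fitted with edgeR 4.0.16 in R 4.3.3 in a quasi-likelihood model of group over 9 libraries. Tests were two-sided, and p-values were adjusted by Benjamini-Hochberg over the 16160 genes, with a threshold of 0.05. SE is the absolute log2 fold change over the square root of F. CPM values are TMM-scaled. Full values are given for members past the threshold, the 8 with the highest mean CPM and the 8 with the smallest p per comparison at a mean of at least 1 CPM, and others named were chosen after their values were seen. Of the partner and marker lists, genes past the threshold are named, with further markers where they move with a result. Exon lengths and 75-base windows came from GENCODE M21 (GRCm38), promoters from RefSeq. The rule left out 5 family 2 to 4 symbols that end in a letter. The acinar marker Amy2b was not analysed here. Alternatives used DESeq2 1.42.0, limma-voom (limma 3.58.1), other scalings and filters, counts divided by 4, a replicate block and left-out libraries. The edgeR steps were run on simulated counts drawn independently for each gene and library. These lack the library differences described above, so the effect of those differences on the calls was not tested. Plots were made with matplotlib 3.10.9 in Python 3.11.15.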

Additional observations from a re-analysis of the deposited data

How the results depend on the processing

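The count of members past the threshold in Model against Normal (2) was 6 with DESeq2, which added Cyp4f18, Cyp4f40 and Cyp4v3 as higher and Cyp4x1 as lower. It was 1 without Model 2 and 3 together, and 4 with the Hoxb13 level as a covariate, an alternative chosen after seeing the data that added Cyp2c69 and Cyp4b1. Leaving out each library in turn gave 1 to 3. Cyp2c65 was added as lower without Model 2, and Cyp4f40 as higher without ATO 2. In ATO against Model (0) the count was 1 with DESeq2 and 0 when each of the 9 libraries was left out in turn. In ATO against Normal (1) it was 2 with DESeq2, which added Cyp4f14, 0 with the Hoxb13 covariate, and 0 to 1 when each library was left out. The replicate number as a block gave 1 member in Model against Normal, Cyp4f14, with Cyp2c55 no longer called (adjusted p = 0.0520), and 0 in ATO against Normal. Same-numbered libraries did not deviate together (correlations -0.279 to 0.229), so the numbers were not taken as a pairing. The log2 fold change of Cyp4b1 in ATO against Model, 1.48, was -0.19 with the Hoxb13 covariate. The cause of these moves was not tested. Of 528 results for named members under the alternatives, 508 kept their direction and side of the threshold, 11 no longer passed, 8 newly passed and 1 reversed. Most of the 528 did not pass in the main fit, so there a kept side means no call, whatever the fold change. The 11 came from the called results. Cyp4f40 in ATO against Normal was lost in 6 of 22 alternatives. In Model against Normal, Cyp4f14 was lost in 3 of 22 and Cyp2c55 in 2 of 22. Over all genes, 883 calls in Model against Normal became 1973 with DESeq2, 582 with scaling to epithelial markers, 402 with the block and 164 (without Normal 3) to 1164 (without Model 3) when each library was left out. The 270 calls in ATO against Normal became 1083 with DESeq2, 20 with the Hoxb13 covariate and 17 (without Normal 3) to 382 (without Model 3) when each library was left out. The summed CPM per group moved by less than the spread between libraries under 3 other scalings. Members with fewer than 1 CPM rest on few read pairs.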
